A study of Mus musculus with 10 samples.

Results

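Myosin heavy chains and their light chains form the thick filament motor of the ventricle, and 5 of their genes are described here in cardiomyocytes (CMs) of old and young mice: Myh6, Myh7, Myh7b, Myl2 and Myl3. The members were taken by gene symbol from a table of 37819 features, and each symbol had 1 row. RNA was sequenced from old C57BL6J mice, aged 20 months, in 5 libraries and from young C57BL6J mice, aged 3 months, in 5 libraries. In both ages CMs were isolated from Langendorff-perfused hearts, and cells positive for CD31, SCA1 or CD45 were removed with beads, which depletes endothelial, stromal and blood-derived cells. The labels give neither a treatment nor a transgene for either age, and they do not say whether each library is a separate animal. The p-values therefore set a difference between the ages against the spread between these libraries, which need not be that between mice.

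A cardiac myosin molecule holds a pair of heavy chains, each with a motor head that splits ATP and pulls on actin, and each head carries an essential and a regulatory light chain. In rodents the fast alpha heavy chain, encoded by Myh6, prevails in the adult ventricle, whereas the slower beta chain, encoded by Myh7, prevails before birth and returns under pressure overload or thyroid hormone loss. Myh7b encodes a related heavy chain of slow muscle type. Myl2 encodes the ventricular regulatory light chain, which is phosphorylated, and Myl3 the ventricular essential light chain. Introns of the heavy chain genes carry microRNAs, short RNAs that pair with target RNAs mainly through the bases of their seed.

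Values are FPKM, the fragments scaled to transcript length and to the mapped fragments of a library, as deposited for each library, so that levels of different genes are compared per length. Old and young CMs were compared with limma on log2(FPKM + 1) for those 12340 features whose mean reached 1 FPKM, and a feature was called at an adjusted p of at most 0.05. A log2 difference is old minus young CMs on this scale. Over all features tested 1.78% were called, 0.689% as higher and 1.09% as lower in old CMs, and the median log2 difference was -0.06, which became -0.00012 with median-ratio scaling of the libraries and -0.09 with each library set to the same total. Fewer cells of a type and less RNA per cell cannot be told apart in such bulk libraries.

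Of the genes listed as ventricular CM markers 8 of 8 had a mean of at least 1 FPKM. They summed to 13487 to 15425 FPKM in old and 15380 to 16959 FPKM in young libraries. Most of this sum came from Tnnt2, Tnni3, Atp2a2 and Pln, so it describes CM RNA and does not set the ventricle apart. Irx4, a ventricular transcription factor gene, averaged 14.4 ± 0.992 FPKM in old and 13.1 ± 2.14 FPKM in young CMs (SD, n = 5 each). RNA of other cells remained. The endothelial markers, 8 of 8 present, summed to 140.5 to 275.1 FPKM in old and 115.3 to 249.3 FPKM in young libraries, and the fibroblast markers, 8 of 8 present, to 49.9 to 141.7 FPKM in old and 51.3 to 133.4 FPKM in young libraries. The mural markers, 8 of 8 present, summed to 80.6 to 168.5 FPKM in old and 87.8 to 173.2 FPKM in young libraries, and the leukocyte markers, 6 of 9 present, to 26.8 to 44.3 FPKM in old and 22.7 to 66.3 FPKM in young libraries. Old library 1 and young library 4 held the highest and second highest sums of each of these 4 lists. The atrial markers, with 4 of 7 present, summed to 31.9 to 242.1 FPKM in old and 20.7 to 121.9 FPKM in young libraries, highest in old library 5 and then in young library 4. None of these marker lists held a gene called by limma.

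The light chains were the most abundant members, followed by Myh6, whereas Myh7 and Myh7b were far lower. Among 22258 protein-coding genes Myl2 ranked 3, Myl3 ranked 6, Myh6 ranked 8, Myh7 ranked 177 and Myh7b ranked 5309 by mean FPKM. Neighbours in this order were apart in each of the 10 libraries. Within a library the FPKM of Myl2 was 1.70 to 1.86 times that of Myl3, Myl3 was 1.31 to 1.70 times Myh6, Myh6 was 10.7 to 15.2 times Myh7, and Myh7 was 38.3 to 57.6 times Myh7b. The members summed to 23300 ± 1315 FPKM in old and 23370 ± 1195 FPKM in young CMs (SD, n = 5 each). They made up 5.34% to 5.83% of the protein-coding FPKM of an old library and 5.13% to 5.65% of a young one.

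None of the 5 members was called, against 1.78% of all features, and none had old and young libraries that did not overlap, against 6.91% of all features. At an unadjusted p under 0.05 limma gave 1 of 5 members, Myh7b, beside 2576 of all 12340 features tested. The median log2 difference of the members was -0.01, beside -0.06 over all features tested, and with median-ratio scaling it was 0.05, beside -0.00012. Myh7 and Myl2 had positive and Myh6, Myh7b and Myl3 negative log2 differences. Of the scalings, the same total changed the sign of Myl2 and median-ratio scaling that of Myl3.

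**Figure D1:**
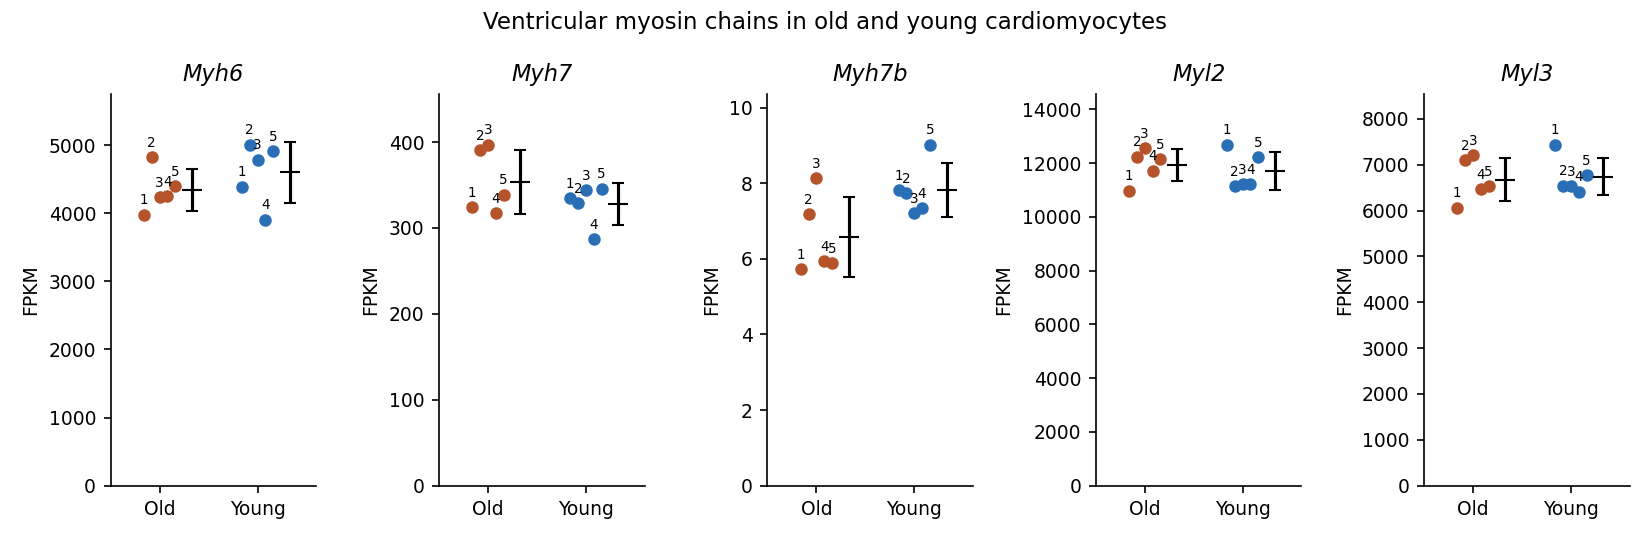
FPKM of the 5 members in each library, old on the left and young on the right of each panel, with library numbers above the points and the mean ± SD as a black bar beside them. The ages overlap in every panel, and the old libraries of Myh7b lie between 5.72 and 8.14 FPKM beside 7.20 to 9.02 FPKM in the young ones.

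Myh6 (ENSMUSG00000040752) lies on the minus strand of mm9 chromosome 14 from 55560758 to 55585764. It stood at 3976, 4823, 4238, 4253 and 4395 FPKM in old libraries 1 to 5, against 4390, 5007, 4785, 3904 and 4907 FPKM in young libraries 1 to 5. The ages overlapped, and the 2 lowest values were those of young library 4 and old library 1, the libraries with the most marker RNA of other cells. Myh6 averaged 4337 ± 311 FPKM in old and 4599 ± 454 FPKM in young CMs (SD, n = 5 each), a log2 difference of -0.08 (SE 0.08, 95% interval -0.25 to 0.09, adjusted p = 0.601 from limma). The log2 difference was -0.08 with the mean of those markers as a covariate and -0.11 without the 2 libraries.

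Myh7 (ENSMUSG00000053093) lies 3760 bases upstream of Myh6 on the same strand, from 55589525 to 55613471 of chromosome 14, with no annotated gene in between. It was measured at 324.0, 390.8, 397.0, 317.0 and 338.8 FPKM in old libraries, against 334.6, 328.5, 343.8, 286.8 and 345.9 FPKM in young libraries. Old libraries 2 and 3 exceeded every young library, while the other old libraries lay within the young range. The mean was 353.5 ± 37.8 FPKM in old and 327.9 ± 24.0 FPKM in young CMs (SD, n = 5 each), with a log2 difference of 0.10, an interval of -0.07 to 0.28 and an adjusted p of 0.502 from limma.

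Myh7b (ENSMUSG00000074652) lies on the plus strand of mm9 chromosome 2 from 155436948 to 155460043. Its values were 5.72, 7.19, 8.14, 5.94 and 5.89 FPKM in old libraries, against 7.81, 7.74, 7.20, 7.35 and 9.02 FPKM in young libraries. All old libraries except library 3 lay below every young library. Myh7b averaged 6.58 ± 1.05 FPKM in old and 7.83 ± 0.717 FPKM in young CMs (SD, n = 5 each), and its log2 difference was -0.23 (SE 0.09, 95% interval -0.43 to -0.02). It did not pass the threshold, with an unadjusted p of 0.0342 and an adjusted p of 0.199 from limma. The difference of the means, -1.25 FPKM, had p = 0.0794 when the libraries were permuted in all ways (exact permutation, two-sided). Without old library 3 this difference was -1.64 FPKM (exact permutation p = 0.00794, against 0.0794 to 0.159 with each of the other libraries left out). That p is the smallest possible and follows from leaving out the only old library within the young range. The adjusted p of limma was then 0.146.

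Myl2 (ENSMUSG00000013936) lies on the plus strand of mm9 chromosome 5 from 122550960 to 122563481. It stood at 10978, 12234, 12561, 11719 and 12142 FPKM in old libraries and at 12684, 11129, 11214, 11222 and 12222 FPKM in young libraries. The highest value was that of young library 1 and the lowest that of old library 1, so that the young range lay almost wholly within the old one. Myl2 averaged 11927 ± 610 FPKM in old and 11694 ± 713 FPKM in young CMs (SD, n = 5 each). The log2 difference was 0.03 (SE 0.06, 95% interval -0.10 to 0.16, adjusted p = 0.835 from limma), and it was -0.02 with each library set to the same total.

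Myl3 (ENSMUSG00000059741) lies on the plus strand of mm9 chromosome 9 from 110666150 to 110672308. Old libraries had 6066, 7099, 7209, 6471 and 6535 FPKM, against 7438, 6543, 6536, 6415 and 6775 FPKM in young libraries. As for Myl2, young library 1 was highest and old library 1 lowest. Myl3 averaged 6676 ± 474 FPKM in old and 6741 ± 411 FPKM in young CMs (SD, n = 5 each). The log2 difference was -0.01 (SE 0.06, 95% interval -0.15 to 0.12, adjusted p = 0.927 from limma). Its sign is not fixed, since it was 0.05 with median-ratio scaling and 0.02 without old library 1 or without young library 1.

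The share of Myh7 in the summed FPKM of Myh6 and Myh7 and the ratio of Myl2 to Myl3 are taken within a library, so that the scale of the library cancels. The Myh7 share was 7.53%, 7.5%, 8.57%, 6.93% and 7.16% in old libraries, against 7.08%, 6.16%, 6.70%, 6.84% and 6.58% in young libraries. Old libraries 1, 2, 3 and 5 exceeded every young library, and old library 4 exceeded all young libraries but library 1. The share averaged 7.54 ± 0.626% in old and 6.67 ± 0.343% in young CMs (SD, n = 5 each), a difference of 0.864 percentage points (two-sided exact permutation p = 0.0159 over 252 arrangements, 0.0317 adjusted over the 2 measures). With each library left out in turn the difference was 0.607 to 1.01 points and the exact permutation p was 0.00794, the smallest possible, to 0.0397. Without young library 4 and old library 1 it was 0.907 points, and without young library 4 and old library 5 it was 1.0 points, with an exact permutation p of 0.0571 in each case.

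**Figure D2:**
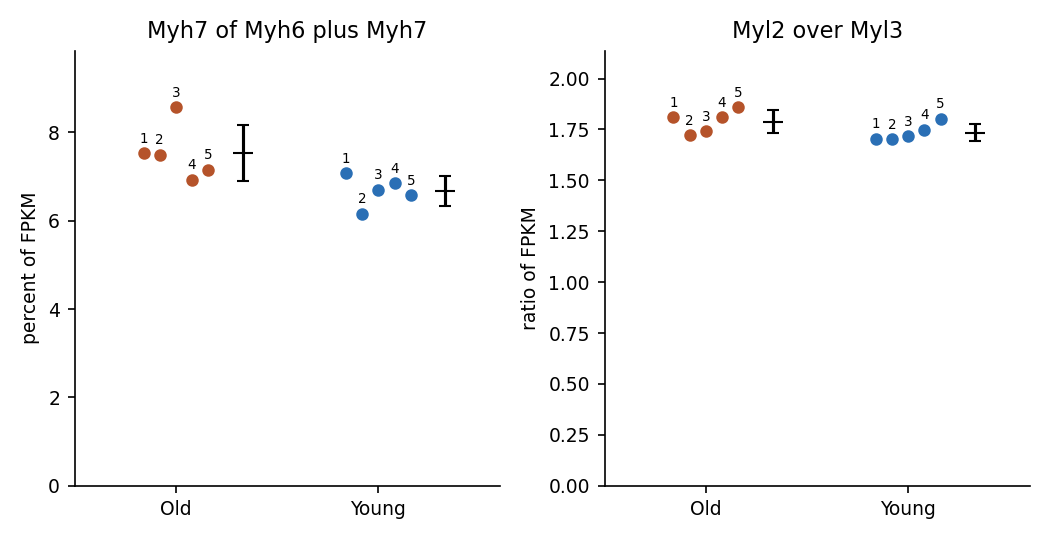
Myh7 in percent of the FPKM of Myh6 plus Myh7 (left panel) and the ratio of Myl2 to Myl3 FPKM (right panel) in old and young libraries, numbered above the points, with the mean ± SD as a black bar. The Myh7 share is 6.93% to 8.57% in old and 6.16% to 7.08% in young libraries, and the light chain ratio is 1.72 to 1.86 in old and 1.70 to 1.80 in young libraries.

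The ratio of Myl2 to Myl3 was 1.81, 1.72, 1.74, 1.81 and 1.86 in old libraries, against 1.71, 1.70, 1.72, 1.75 and 1.80 in young libraries. The ages overlapped. On the log2 scale the ratio was 0.84 ± 0.04 in old and 0.79 ± 0.04 in young CMs (SD, n = 5 each), a difference of 0.04 (two-sided exact permutation p = 0.103). Relative to both heavy chains, the FPKM of Myl2 was 2.55 ± 0.130 times in old and 2.39 ± 0.277 times in young CMs, and that of Myl3 was 1.42 ± 0.0763 times in old and 1.38 ± 0.161 times in young CMs (SD, n = 5 each).

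How much of the Myh7 value is Myh7 RNA bears on its share, because Myh6 and Myh7 are near copies of each other. The coding sequences of the annotated transcripts, 5817 bases for Myh6 and 5808 for Myh7, were identical at 91.6% of 5805 aligned bases, whereas Myh7b was identical to Myh6 at 71.5% and to Myh7 at 72.1%. Of the 50-base stretches of the Myh7 transcript 22.5% also occurred in Myh6, and 15.5% of the 75-base and 11.4% of the 100-base stretches did. Of the Myh6 transcript 22.8%, 15.6% and 11.5% of the stretches of these lengths occurred in Myh7. Myh7b shared no stretch of 50 bases with either heavy chain, and Myl2 and Myl3 shared none with each other.

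**Figure D3:**
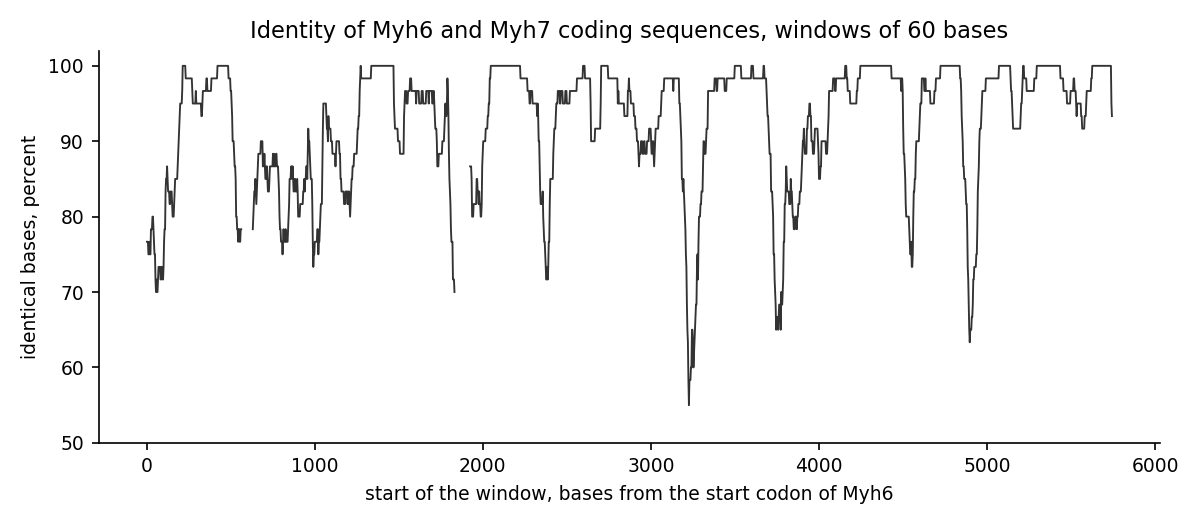
Identity of the aligned Myh6 and Myh7 coding sequences in windows of 60 bases, plotted against the start of the window in bases from the start codon of Myh6, with breaks where the alignment has gaps. The median window is 95% identical, 384 of 1865 windows are fully identical, and the lowest is 55.0% identical.

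The longest stretch identical in both genes had 245 bases and is shown because no fragment within it can be placed in either gene by its sequence. It spans exons 30 and 31 of Myh6 (mm9 chr14:55567164-55567562, minus strand) and exons 32 and 33 of Myh7 (mm9 chr14:55593784-55594184, minus strand), read from the transcripts across the intron, in the part that codes for the rod of the myosin tail.
Myh6 and Myh7: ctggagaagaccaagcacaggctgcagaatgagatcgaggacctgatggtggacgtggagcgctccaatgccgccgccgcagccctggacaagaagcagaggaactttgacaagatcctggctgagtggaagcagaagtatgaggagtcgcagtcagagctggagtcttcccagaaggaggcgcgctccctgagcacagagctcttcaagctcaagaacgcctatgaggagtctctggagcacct

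The least alike window of 60 aligned bases is shown as the contrast, where a fragment does tell the genes apart. It differs at 27 bases, in capitals, and lies in exons 24 and 25 of Myh6 (mm9 chr14:55571140-55571436, minus strand) and exons 26 and 27 of Myh7 (mm9 chr14:55599215-55601028, minus strand).
Myh6: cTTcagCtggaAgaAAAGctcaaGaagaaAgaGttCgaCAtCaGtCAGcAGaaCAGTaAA
Myh7: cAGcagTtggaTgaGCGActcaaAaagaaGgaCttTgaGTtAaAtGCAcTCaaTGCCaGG

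The 2 kinds of deposited values differed for Myh7 and not to that extent for the other members. A mean normalized count per gene, pooled over all libraries and made by the authors from uniquely aligned reads, was deposited as well. This pooled count was 255740 for Myh6, 2979 for Myh7, 561.6 for Myh7b, 88480 for Myl2 and 77501 for Myl3. Myh6 exceeded Myh7 by 13.1 times in mean FPKM. In mean normalized count per length it did so by 86.7 times, with the transcripts used for sequences, 6079 bases for Myh6 and 6139 for Myh7. The mean count per FPKM and kilobase of the longest coding transcript was 12.5 in the median of 10310 protein-coding genes, with quartiles of 9.98 and 13.9. It was 9.42 for Myh6, 12.7 for Myh7b, 8.43 for Myl2 and 12.3 for Myl3, but 1.40 for Myh7, lower than in all but 1.77% of these genes. These values depend on the length chosen. Per kilobase of all annotated exons the value was 8.93 for Myh6, 11.8 for Myh7b, 3.84 for Myl2, 8.85 for Myl3 and 1.02 for Myh7.

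**Figure D4:**
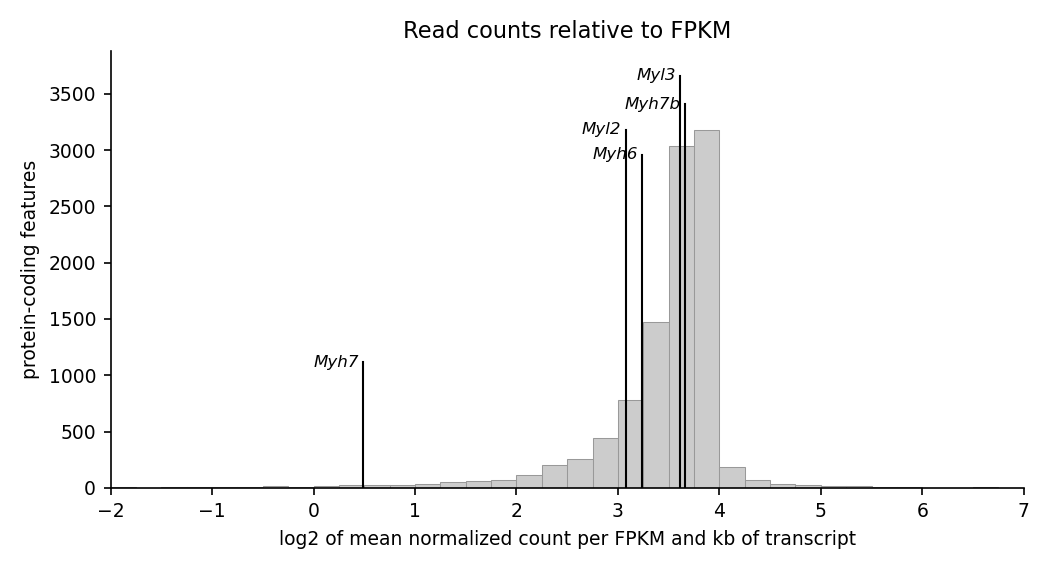
Histogram of 10310 protein-coding features by the log2 of the authors' mean normalized count per FPKM and kilobase of the longest coding transcript, with a labelled line at each member. Myh7, at 1.40 counts per FPKM and kilobase, stands apart from the other members, which lie between 8.43 and 12.7.

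At the rate of Myh6, the mean count of Myh7 corresponds to 50.8 FPKM over its longest coding transcript of 6230 bases. Its deposited mean was 340.7 FPKM. The Myh7 share of both heavy chains is 1.14% by count per length with the Myh7 transcript of 6139 bases, beside 7.09% by mean FPKM. Per kilobase of the longest coding transcript the order of the members was the same in counts. The values were 99527 for Myl2, 82185 for Myl3, 42069 for Myh6, 478.2 for Myh7 and 91.1 for Myh7b. Over all annotated exons Myl2 has 1950 and Myl3 1306 bases, and with these lengths Myl3 would precede Myl2. The mean count is pooled over all libraries. The same deposited comparison also holds 10 columns of values per sample, but their names do not say which library each belongs to, and they were not used. The difference in Myh7 share between old and young CMs was therefore not repeated on counts, and how far reads of Myh6 enter the FPKM of Myh7 was not tested.

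The microRNAs in the heavy chain genes lie on the strand of their hosts, Mir208a in intron 29 of Myh6 (mm9 chr14:55567897-55567979, minus strand), Mir208b in intron 31 of Myh7 (mm9 chr14:55594537-55594613, minus strand) and Mir499 in intron 19 of Myh7b (mm9 chr2:155448616-155448694, plus strand). Their mature sequences, from the RefSeq annotation of GRCm38.p6, are shown with the seed, bases 2 to 8, in capitals, because the seed groups the microRNAs of Myh6 and Myh7. Mir208a and Mir208b share a seed, and the seed of Mir499 differs from it only at base 8.
mmu-miR-208a-3p: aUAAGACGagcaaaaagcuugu
mmu-miR-208b-3p: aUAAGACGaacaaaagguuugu
mmu-miR-499-5p: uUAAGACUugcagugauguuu

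Mir208b, the microRNA hosted by Myh7, was listed at 0, 0, 106.7, 0 and 193.7 FPKM in old libraries, against 166.5, 602.3, 498.6, 372.8 and 166.8 FPKM in young libraries. Old library 5 was above the lowest young libraries, so the ages overlapped. The log2 difference was -5.43 (SE 1.58, adjusted p = 0.104 from limma), and the adjusted p was 0.0523 to 0.231 over the alternatives. The feature is the hairpin of 77 bases in an intron of Myh7, on the same strand, and not the mature microRNA. Its mean normalized count was 24.6, so its FPKM rest on few reads. Whether these reads come from unspliced Myh7 RNA was not tested. The FPKM of its host had the opposite sign of difference. Mir208a and Mir499 were listed at 0 FPKM in every library, with mean normalized counts of 0.225 and 0, so neither could be compared with its host.

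Across the 10 libraries Myl2 and Myl3 varied together, with a Pearson r of 0.87 on log2(FPKM + 1), whereas r was 0.44 for Myh6 with Myh7, 0.48 for Myh6 with Myh7b and 0.31 for Myh7 with Myh7b. Myl2 had r = 0.15 with Myh6 and r = 0.61 with Myh7, and Myl3 had r = 0.30 and r = 0.63. These are descriptions over libraries that differ in scale and in RNA of other cells, and Myh6 and Myh7 may share reads. The features named next were picked for the highest r among the tested features with a gene symbol. Over only 10 libraries such picked values can be high without any relation between the genes, which was not tested. The 3 features most like Myh6 were Phtf2 (r = 0.95), Dennd1b (r = 0.94) and Ryr2 (r = 0.93), the last of which encodes the calcium release channel of the sarcoplasmic reticulum. For Myh7 they were C330011M18Rik (r = 0.88), F730048M01Rik (r = 0.87) and Casz1 (r = 0.87), a zinc finger transcription factor gene. Those of Myh7b were Gsk3a (r = 0.94), a glycogen synthase kinase gene, Pde1c (r = 0.93), a cyclic nucleotide phosphodiesterase gene, and Atpaf2 (r = 0.93), an assembly factor of the ATP synthase. Myl2 was most like Pebp1 (r = 0.93), Gsto1 (r = 0.90) and Arl2 (r = 0.88), and Myl3 most like Nkx6-2 (r = 0.91), Klc2 (r = 0.91) and Cox6a2 (r = 0.90), the muscle form of a cytochrome oxidase subunit.

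Of 69 genes in lists around the members 68 were in the table and 54 were tested. None was called. A negative log2 difference was found in 37 of the 54, or 68.5%, and in 8473 of all 12340 features tested, or 68.7%, and the median was -0.06 in both. With median-ratio scaling 23 of the 54 and 6178 of the 12340 were negative, so the counts of signs given for each list below hold for the FPKM as deposited and are given with those under median-ratio scaling. In the FPKM as deposited the old and young libraries did not overlap for 4 of the 54, all lower in old CMs, beside 6.91% of all features. The median-ratio factor averaged 0.977 in old and 1.02 in young libraries, and overlap was not examined after this scaling. At an unadjusted p under 0.05 limma gave 10 of the 54, beside 2576 of the 12340 features.

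**Figure D5:**
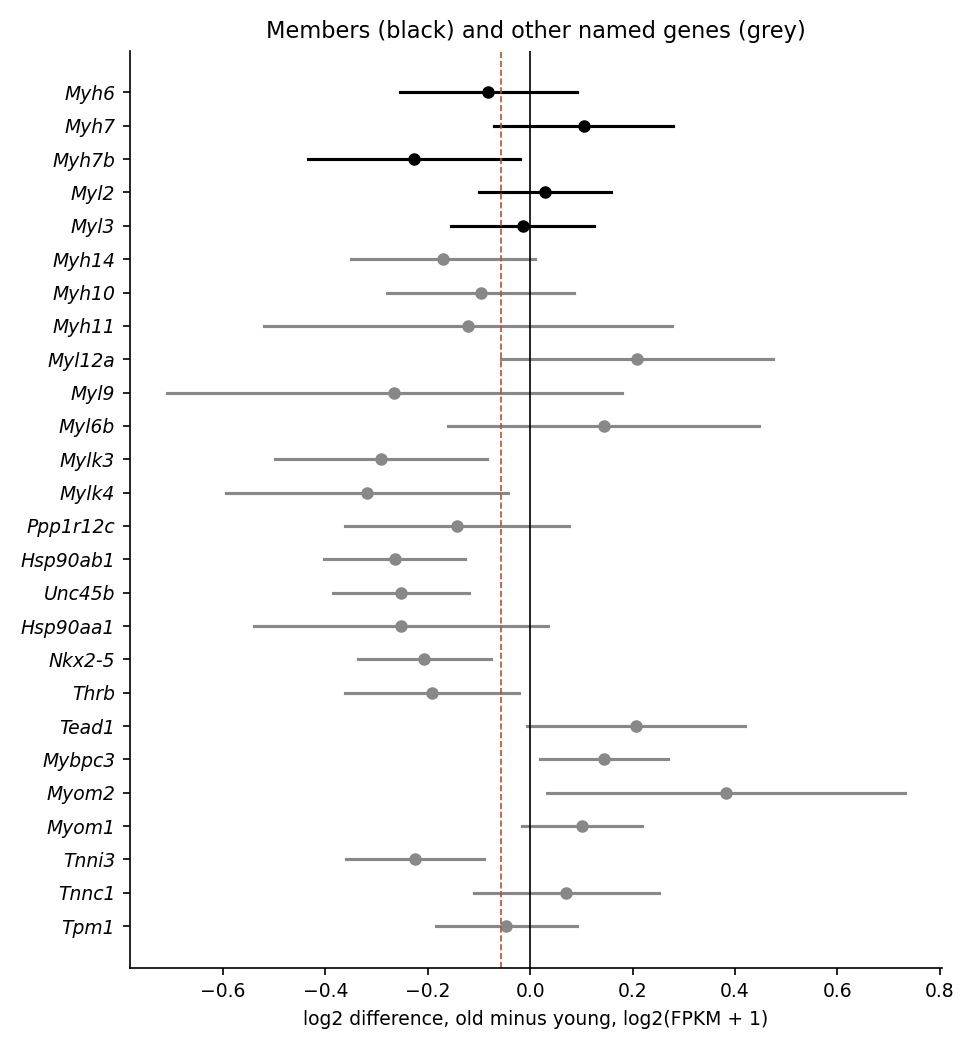
Log2 difference, old minus young, on log2(FPKM + 1) for the 5 members (black) and the other named genes (grey), with 95% intervals from limma. The solid line marks 0 and the dashed line the median of all features tested, -0.06. Of the members, only the interval of Myh7b, -0.43 to -0.02, lies on 1 side of 0, and none was called.

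No other sarcomeric heavy chain reached a mean of 1 FPKM, in 7 of 7 genes of that list. The highest of them, Myh1 of fast skeletal muscle, stood at 0.673 ± 0.0896 FPKM in old and 0.775 ± 0.174 FPKM in young CMs (SD, n = 5 each). Of the 4 heavy chains of smooth muscle and non-muscle cells none was called, and 3 had a negative log2 difference, also with median-ratio scaling. Myh14, a non-muscle heavy chain, averaged 21.9 ± 2.72 FPKM in old and 24.7 ± 1.62 FPKM in young CMs (SD, n = 5 each, log2 difference -0.17, adjusted p = 0.268 from limma), and Myh10, another one, had a log2 difference of -0.10. Myh11, the smooth muscle chain, had a log2 difference of -0.12, which was 0.04 without young library 4, where it stood at 2.68 FPKM.

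Among 10 other light chains 8 were tested, none was called, 4 had a positive and 4 a negative log2 difference, the same numbers as with median-ratio scaling. Myl12a, a regulatory light chain of non-muscle myosin, averaged 561.1 ± 71.9 FPKM in old and 487.1 ± 82.5 FPKM in young CMs (SD, n = 5 each), with 0.21 as log2 difference and an adjusted p of 0.357 from limma. Myl9 and Myl6b had log2 differences of -0.27 and 0.14. The atrial light chains followed single libraries. Myl7, the atrial regulatory chain, stood at 1.33, 1.93, 2.35, 2.0 and 47.1 FPKM in old libraries, against 9.07, 1.97, 8.17, 34.1 and 1.98 FPKM in young libraries. Myl4, the atrial essential chain, stood at 1.58, 3.33, 2.51, 2.48 and 54.3 FPKM in old libraries and at 9.13, 2.46, 6.60, 26.4 and 2.56 FPKM in young libraries. Both were highest in old library 5 and then in young library 4, and both lay far below Myl2 and Myl3 in every library.

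The regulatory light chains of myosin are phosphorylated by kinases and reset by the myosin phosphatase. Of 7 tested genes of this list 6 had a negative log2 difference, 4 with median-ratio scaling, and none was called. Mylk3, the cardiac myosin light chain kinase, stood at 128.9, 162.3, 151.3, 159.3 and 181.0 FPKM in old libraries, against 185.8, 188.6, 166.1, 199.4 and 217.6 FPKM in young libraries. Only old library 5 exceeded any young library. Its log2 difference was -0.29 (SE 0.09, adjusted p = 0.122 from limma). Mylk4, a related kinase gene, averaged 29.8 ± 4.80 FPKM in old and 37.5 ± 6.09 FPKM in young CMs (SD, n = 5 each), or -0.32 on the log2 scale, with an adjusted p of 0.182 from limma, and Ppp1r12c, a targeting subunit of the phosphatase, had a log2 difference of -0.14.

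The folding and turnover list held 8 tested genes, none of them called. All 8 had a negative log2 difference in the FPKM as deposited, but only 4 with median-ratio scaling, where Smyd1, Trim63, Trim54 and Trim55 lay between 0.01 and 0.06. Unc45b, the chaperone that folds the myosin head in muscle, stood at 62.8, 68.4, 60.5, 60.5 and 64.7 FPKM in old libraries, against 86.8, 73.7, 71.9, 75.1 and 71.4 FPKM in young libraries. Every old library was below every young one as deposited. The log2 difference was -0.25 (SE 0.06, adjusted p = 0.0662 from limma), or -0.19 with median-ratio scaling. Hsp90ab1, the general chaperone that works with it, stood at 483.2, 521.9, 477.8, 488.2 and 548.5 FPKM in old libraries and at 680.4, 574.3, 557.4, 598.3 and 620.6 FPKM in young libraries. Again the ages did not overlap as deposited. The log2 difference was -0.26 (SE 0.06, adjusted p = 0.0646 from limma), or -0.20 with median-ratio scaling. Hsp90aa1, the inducible form, averaged 31.1 ± 2.29 FPKM in old and 37.9 ± 9.0 FPKM in young CMs (SD, n = 5 each), with 53.2 FPKM in young library 1 and a log2 difference of -0.25.

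Of 16 tested regulators of the cardiac myosin genes 6 had a positive and 10 a negative log2 difference, or 10 a positive and 6 a negative one with median-ratio scaling, with none called. Nkx2-5, a cardiac homeobox transcription factor, stood at 43.2, 50.3, 50.4, 45.0 and 42.8 FPKM in old libraries, against 58.2, 52.5, 52.9, 51.9 and 52.3 FPKM in young libraries. The ages did not overlap as deposited, but the highest old and the lowest young library were close, and the log2 difference was -0.21 (adjusted p = 0.0980 from limma). Thrb, a thyroid hormone receptor, averaged 2.43 ± 0.328 FPKM in old and 2.90 ± 0.248 FPKM in young CMs (SD, n = 5 each), with a log2 difference of -0.19. Tead1, a factor that binds the muscle CAT element, averaged 34.5 ± 3.03 FPKM in old and 29.9 ± 4.24 FPKM in young CMs (SD, n = 5 each), with a log2 difference of 0.21. Neither passed the test, with adjusted p = 0.191 for Thrb and adjusted p = 0.256 for Tead1 from limma.

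In the thick filament itself 5 partners of myosin were tested, 4 with a positive log2 difference, 5 with median-ratio scaling, and none called. Mybpc3, the cardiac myosin binding protein C, averaged 1227 ± 69.5 FPKM in old and 1110 ± 68.6 FPKM in young CMs (SD, n = 5 each), or 0.14 on the log2 scale, with an adjusted p of 0.182 from limma. Myom2 and Myom1, which link thick filaments at the M-band, had log2 differences of 0.38 and 0.10. In the thin filament, on which myosin pulls, 4 of 5 tested genes had a negative log2 difference, but 1 of 5 with median-ratio scaling, which was Tnni3, cardiac troponin I. It had 3499, 4129, 4008, 4007 and 4060 FPKM in old libraries, against 5094, 4404, 4522, 4410 and 4588 FPKM in young libraries. The ages did not overlap as deposited, and the log2 difference was -0.22 (SE 0.06, adjusted p = 0.0886 from limma). Tnnc1, cardiac troponin C, and Tpm1, the tropomyosin of heart muscle, had log2 differences of 0.07 and -0.05, the second of which was 0.02 with median-ratio scaling.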

How the data were processed

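The authors aligned paired-end reads to mm9 with TopHat, counted uniquely aligned reads per gene with HTSeq, compared the ages with DESeq2, and determined FPKM with Cufflinks. Versions are not given in the sources used here. The deposited FPKM of 10 libraries were used as given, after 1 stray header line was removed. From the authors' comparison only the signal named mean normalized count, pooled over all libraries, was used. Its log2 fold changes, Wald statistics and p-values hold the authors' own test and were not used, nor were its 10 columns of values per sample. Of its mean normalized counts 73.9% fell in 5 entries that name no gene, which were left out. The depth per library is not given in the sources used here, so no counting interval was computed. Total FPKM was 1155610 to 3289460 per library, of which protein-coding genes held 399825 to 458918. Setting each library to the same total therefore followed mostly the other features.

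On log2(FPKM + 1), 12340 features were compared between the ages by the trended, moderated test of limma 3.58.1 (R 4.3.3), two-sided, and p-values were adjusted over all of them by Benjamini-Hochberg. Single values were compared by exact permutation of the libraries, whose smallest p is 0.00794 for 5 against 5. On simulated data of 12340 features the test called 74 of 100 changes of 0.5 and 91 of 100 changes of 1 (log2), while 8 of its 173 calls were unchanged features. The simulated noise was independent between features, without differences in library scale or RNA of other cells, so the simulation does not cover these. Its changes were also larger than the log2 difference of any member. Coordinates, exons and transcripts are from GENCODE vM1 on mm9, which matched 97.9% of the feature identifiers and 5 of 5 members. The transcript of each member with the longest complete coding sequence was used for sequences, and it matched the mm9 genome base for base. Stretches and windows were compared in Python 3.11.15 with Biopython 1.88, and plots were drawn with matplotlib 3.10.9. Counts per FPKM and kilobase used tested protein-coding features whose longest coding transcript had at least 500 bases.

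The members always, in each list up to 3 genes with the smallest p, and per member the 3 features with the highest r were named. Myl4, Myl7 and Myh1 were named after their values were seen. Members, lists and tests were chosen with earlier results of these data known. Alternatives were a pseudocount of 0.1, no filter or a minimum of 5 FPKM, median-ratio scaling, the same total, a replicate block, robust eBayes, a marker covariate, and leaving out each library, young library 4 with old library 1, or young library 4 with old library 5, the last added after the data were seen.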

Additional observations from a re-analysis of the deposited data

Results flagged for a closer look

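Within an age, 9 values lay far from the other 4 libraries, by a gap of over 0.71 of the whole range, among 58 groups examined, where chance gives about 1 in 20. No value of a member was among them. Old library 1 stood high for Ppp1r12c, at 24.8 FPKM, and low for Tnni3, at 3499 FPKM, and Tpm1, at 6420 FPKM. Young library 1 stood high for Unc45b, at 86.8 FPKM, Hsp90aa1, at 53.2 FPKM, Nkx2-5, at 58.2 FPKM, and Tnni3, at 5094 FPKM. Young library 4 stood high for Myh11, at 2.68 FPKM, and low for Myom1, at 272.9 FPKM.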

How the results depend on the processing

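No member was called under any of the alternatives run. The count of 220 called features was 135 with median-ratio scaling, 19 with the same total, 33 (without old library 3) to 146 (without old library 5) with each library left out in turn, 49 without young library 4 and old library 1, and 84 without young library 4 and old library 5, and the cause was not tested. Same-numbered libraries share only a number, since their deviations correlated at -0.16 to 0.06. With a replicate block 26 features were called. The Myh7 share, 0.864 points higher on average and higher in 5 of 5 pairs, had p = 0.0625 by exact sign flips of the pairs, the smallest that pairs allow. The log2 ratio of Myl2 to Myl3 was also higher in 5 of 5 pairs, with the same p of 0.0625 from sign flips. The difference of the Myh7 share was 0.907 points without young library 4 and old library 1 and 1.0 without young library 4 and old library 5. The log2 difference of Myl2 reversed to -0.020 with the same total. That of Myl3 reversed to 0.053 with median-ratio scaling and to 0.0016 without young library 4 and old library 1, where its FPKM difference was 5.71, and ranged from -0.043 to 0.021 with each library left out, from -198.5 to 108.8 in FPKM. The Myh7b difference ranged from -1.64 to -0.949 FPKM and the Myh7 share difference from 0.607 to 1.01 points with each library left out. Among other named genes, Myh11 reversed to 0.042 without young library 4 and to 0.043 without it and old library 5, with a range of -0.18 to 0.042 over the libraries left out in turn, and Tpm1 to 0.022 with median-ratio scaling. Depth per library is not given, so the precision of low genes such as Myh7b and Mir208b rests on the spread between libraries.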
